A study of Homo sapiens with 15 samples.

Results

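Peaks at 4 genes that mark luminal breast cells, ESR1, GATA3, FOXA1 and ERBB2, were described in MDA-MB-231, an established human cell line of triple-negative breast cancer. Members were chosen by position alone: every peak of the 4 deposited lists from chromatin immunoprecipitation with sequencing (ChIP-seq) that overlapped, in hg19, one of the genes with 20 kb added on each side. This gave 125 of 647617 peaks, of which 68 lay at ESR1, 39 at ERBB2, 17 at GATA3 and 1 at FOXA1. By list, 52 came from H3K4ox replicate 1, 41 from H3K4ox replicate 2, 24 from RUVBL2 and 8 from H2A.Z. The cells of these libraries were grown in serum-containing medium, and their labels name no knockdown, drug or transgene. The H3K4ox antibody was made by hand, per the labels, and those to H2A.Z and RUVBL2 were commercial. The series also holds an input, 8 RNA-seq and 2 ATAC-seq samples, which were not analysed here, so the expression of the genes in these cells was not examined.

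Luminal identity rests on a small network of factors. ESR1 encodes the oestrogen receptor alpha, a nuclear receptor that activates genes when it binds oestrogen. FOXA1 is a pioneer factor that binds closed chromatin and makes it accessible to the receptor, and GATA3 is a zinc finger factor needed for luminal differentiation that acts together with both. ERBB2 encodes HER2, a receptor tyrosine kinase that drives a subset of breast cancers when its gene is amplified. Triple-negative tumours are defined by the absence of the oestrogen and progesterone receptors and of HER2 amplification. H3K4ox is histone H3 oxidised at lysine 4, the product that LOXL2 leaves, and is linked to compacted chromatin. H2A.Z is a histone variant found at many gene starts and enhancers, and RUVBL2 is an ATPase subunit of the complexes that exchange it.

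In hg19, ESR1 spans chr6:152011631-152424409 (412.8 kb), GATA3 chr10:8096667-8117164 (20.5 kb), FOXA1 chr14:38058757-38064325 (5.57 kb) and ERBB2 chr17:37844393-37884915 (40.5 kb). FOXA1 lies on the minus strand, so its start is the higher coordinate, and the others lie on the plus strand. With their flanks the windows were 452.8, 60.5, 45.6 and 80.5 kb long. Exons, introns and untranslated regions in hg19 were not analysed here. In RefSeq gene order ERBB2 stands between PGAP3 and MIEN1, with GRB7 next, ESR1 between CCDC170 and SYNE1, GATA3 between TAF3 and CELF2, and FOXA1 between MIPOL1 and TTC6.

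No list had a peak within 1 kb of the first base of any of the 4 genes in hg19. Promoter sequences are shown to describe the starts of these genes. They are RefSeq promoters of build GRCh38.p14, 300 bases each, from 250 before to 50 after a start. That build differs from the hg19 of the peaks, and no position was carried from one to the other. Whether a peak lies at a printed promoter was thus not analysed here. The table matched all 4 genes. It holds 6 entries each for ESR1 and GATA3 and 1 each for FOXA1 and ERBB2. Where there were several, the entry with the most CG dinucleotides is shown, which for ESR1 is the fifth in order and for GATA3 the fourth. They lie at chr6:151807432-151807731 (plus), chr10:8053391-8053690 (plus), chr14:37595200-37595499 (minus) and chr17:39687844-39688143 (plus). Capitals mark matches to the motifs named in the next paragraph, on either strand.
ESR1: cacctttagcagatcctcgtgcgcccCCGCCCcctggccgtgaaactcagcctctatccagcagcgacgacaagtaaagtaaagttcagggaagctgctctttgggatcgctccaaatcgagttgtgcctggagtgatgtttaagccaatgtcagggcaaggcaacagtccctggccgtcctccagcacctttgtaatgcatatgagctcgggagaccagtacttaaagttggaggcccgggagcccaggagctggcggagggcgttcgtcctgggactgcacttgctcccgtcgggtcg
GATA3: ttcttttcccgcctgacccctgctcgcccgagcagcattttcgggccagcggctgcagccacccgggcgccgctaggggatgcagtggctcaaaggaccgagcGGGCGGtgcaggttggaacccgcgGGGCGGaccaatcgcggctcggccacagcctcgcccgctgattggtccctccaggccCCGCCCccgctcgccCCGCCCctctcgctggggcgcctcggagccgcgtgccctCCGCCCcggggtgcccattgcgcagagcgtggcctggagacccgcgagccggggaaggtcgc
FOXA1: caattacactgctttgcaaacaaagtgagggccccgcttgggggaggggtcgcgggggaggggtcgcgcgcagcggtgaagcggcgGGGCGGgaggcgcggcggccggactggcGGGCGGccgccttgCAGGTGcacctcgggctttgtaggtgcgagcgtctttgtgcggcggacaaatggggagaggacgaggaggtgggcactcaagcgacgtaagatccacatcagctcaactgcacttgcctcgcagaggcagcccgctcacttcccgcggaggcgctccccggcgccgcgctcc
ERBB2: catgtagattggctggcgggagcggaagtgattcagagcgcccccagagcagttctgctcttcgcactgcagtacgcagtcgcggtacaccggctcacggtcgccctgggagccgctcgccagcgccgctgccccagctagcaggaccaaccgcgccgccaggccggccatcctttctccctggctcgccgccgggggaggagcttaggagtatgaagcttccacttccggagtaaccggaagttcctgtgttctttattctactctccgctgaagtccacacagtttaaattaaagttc

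The promoters differed in base composition. The GATA3 promoter held 36 CG dinucleotides and that of FOXA1 34, more than 87.3% and 84.4% of the 35116 promoters of the table, whose median was 14. The ERBB2 promoter held 24 and the ESR1 promoter 17. The other 5 entries of ESR1 held 4 to 12, and those of GATA3 5 to 29. The GC box GGGCGG matched 5 times in the GATA3 promoter, 2 times in that of FOXA1, 1 time in that of ESR1 and not in that of ERBB2. Of all promoters, 45% held it. The E-box CACCTG, a sequence bound by the epithelial repressors of the ZEB and SNAI families, matched 1 time, 122 bases before the FOXA1 start, and 20.6% of all promoters held it. No match was found in the 14 promoters of these genes for the motif of GATA factors, written AGATAA and held by 10.3% of all promoters, the forkhead motif TGTTTAC (3.42%) or the oestrogen response element's repeated unit AGGTCA (13.8%). The matches shown do not overlap one another, and a missing match says only that these letters are not in this window.

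ERBB2 had the highest H3K4ox density and FOXA1 the lowest. ERBB2 had 21 H3K4ox peaks in replicate 1 and 14 in replicate 2, which is 2.61 and 1.74 peaks per 10 kb of window (2.17 ± 0.61, SD, n = 2). GATA3 had 7 and 6 peaks, or 1.16 and 0.99 per 10 kb (1.07 ± 0.12, SD, n = 2). ESR1 had 23 and 21 peaks, or 0.51 and 0.46 per 10 kb (0.49 ± 0.03, SD, n = 2). FOXA1 had 1 peak in replicate 1 and none in replicate 2, or 0.22 and 0 per 10 kb (0.11 ± 0.16, SD, n = 2). The replicate values of neighbouring genes in this order did not overlap, but the same 2 libraries gave the values of every gene. The genes are windows of these libraries and not separate groups of libraries, so no test was run and the order is a description. The order of GATA3 and ESR1 turned when the flanks were left out, with 0.49 per 10 kb in GATA3 itself and 0.51 in ESR1.

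The other antibodies were counted in the same windows. RUVBL2 had 4 peaks at ERBB2 (0.497 per 10 kb), 18 at ESR1 (0.398), 2 at GATA3 (0.331) and 0 at FOXA1. H2A.Z had 2 peaks at GATA3 (0.331 per 10 kb), 6 at ESR1 (0.133) and 0 at ERBB2 and FOXA1. The RUVBL2 order turned with 50 kb flanks, which gave 0.664 at GATA3, 0.498 at ERBB2, 0.449 at ESR1 and 0.284 at FOXA1. With a single library for each of these antibodies, neither order could be set against a spread between libraries. The header lines of the H3K4ox lists name an input and those of the other lists do not, and the depth of every library was unknown.

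Against their own chromosomes, most of the densities were ordinary. The H3K4ox density at ERBB2 was 2.50 ± 0.67 times the mean of all chromosomes but 1.18 ± 0.32 times that of chromosome 17 (SD, n = 2), and 1 replicate lay above the chromosome mean and the other below it. GATA3 stood at 1.01 ± 0.09 times the mean of chromosome 10, and ESR1 at 0.74 ± 0.03 times that of chromosome 6 (SD, n = 2). FOXA1 stood at 0.100 ± 0.142 times the mean of chromosome 14 (SD, n = 2), at which its window would hold about 5 peaks in each list (4.99 and 4.97). RUVBL2 was between 0.695 and 0.838 times the chromosome mean at ERBB2, GATA3 and ESR1. H2A.Z at GATA3 was 2.24 times the mean of chromosome 10, from 2 peaks where the mean would give 0.89. Of tiles as long as the GATA3 window, 19.2% over the genome and 22.3% on chromosome 10 held at least 2.

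**Figure D1:**
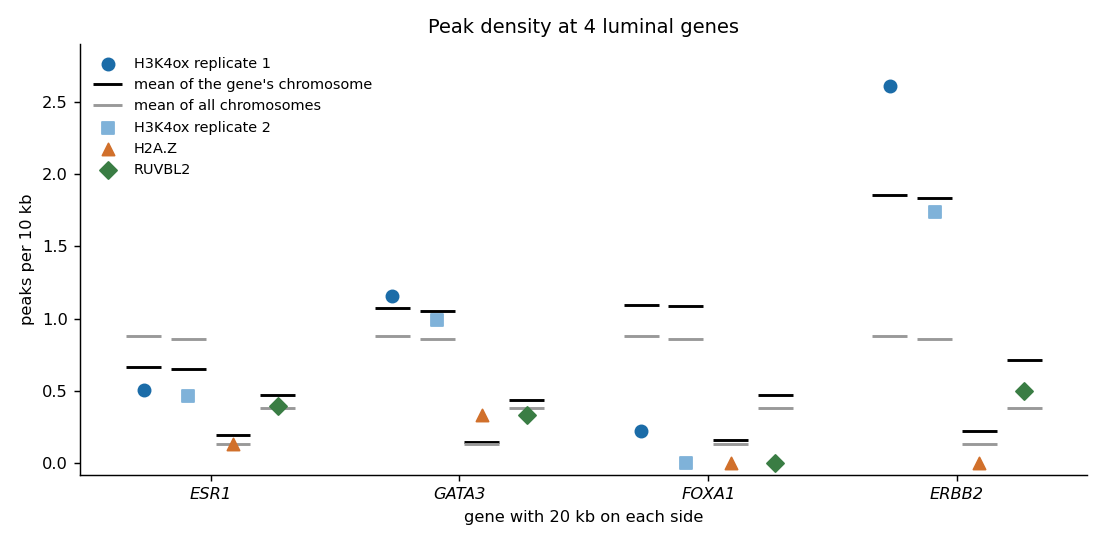
Peaks per 10 kb (y axis) in the windows of the 4 genes (x axis), 1 point per deposited list, with a black bar for the mean of the gene's chromosome and a grey bar for that of all chromosomes. The H3K4ox points of ERBB2 lie at 2.61 and 1.74 on either side of the bar of chromosome 17, and those of FOXA1 at 0.22 and 0 lie below the bars of chromosome 14.

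The windows were also read against consecutive tiles laid over all chromosomes, leaving out tiles that touched any of 22 stretches of 1 Mb or more without a peak in any list. Of 287549 tiles of 10 kb, 53% held an H3K4ox peak of replicate 1, 51.9% one of replicate 2, 29.4% a RUVBL2 peak and 12% an H2A.Z peak. At ERBB2 all 8 tiles of the window held H3K4ox in both replicates, where chromosome 17 had 80.3% in each, and 3 of 8 held RUVBL2, where chromosome 17 had 47.8%. At ESR1, 20 of 45 tiles held H3K4ox of replicate 1, 16 of 45 of replicate 2, 14 of 45 RUVBL2 and 4 of 45 H2A.Z. On chromosome 6 the shares were 45.3%, 44.1%, 36.4% and 17.3%. At GATA3, 3 of 6 tiles held H3K4ox in each replicate and 2 of 6 held H2A.Z, against 63.4%, 62.3% and 13.3% on chromosome 10. At FOXA1, 1 of 4 tiles held H3K4ox of replicate 1 and 0 of 4 any other list, against 62.7% and 62% for the H3K4ox replicates on chromosome 14.

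FOXA1, the pioneer factor, had the emptiest window. Its single peak, chr14:38046123-38046796 (H3K4ox replicate 1, score 85.92, width 674 bp), lay 17.9 kb after the start, beyond the end of the gene, and met no peak of replicate 2. The gene itself and the 20 kb before it held no peak of any list. Of 63072 tiles of the same length over the genome, 10.3% held at most 1 peak in the 4 lists together. On chromosome 14, 16.1% of 1937 such tiles held at most 1 H3K4ox peak of replicate 1 and 5.63% none of replicate 2. Tiles without RUVBL2 made up 23.2% of those on chromosome 14 and tiles without H2A.Z 58%.

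Peaks began again 30 kb before FOXA1. Outside the window but within 50 kb of the gene lay 11 further peaks. Of these, 4 formed an H3K4ox pair held by both replicates with centres at -33.5 and -35.5 kb in replicate 1, where the minus sign stands for positions before the start, with scores of 135.1 and 93.91 in replicate 1 and of 169.4 and 141.2 in replicate 2. RUVBL2 peaks overlapped both, with scores of 114.4 and 53.11. The nearest H2A.Z peak, at -30.3 kb (score 51.57), met H3K4ox of replicate 1 alone and no RUVBL2. Taking 50 kb on each side raised FOXA1 from 0.11 to 0.38 H3K4ox and from 0 to 0.28 RUVBL2 peaks per 10 kb.

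GATA3 had a peak-free start and a cluster after its end. No list had a peak between 14.3 kb before and 10.3 kb after the start, a stretch of 24.6 kb that includes the first part of the gene. Of the 7 H3K4ox peaks of replicate 1, 5 lay in the flank after the gene, as did 5 of 6 in replicate 2 and both RUVBL2 peaks. How often such a gap or cluster occurs elsewhere was not analysed here. For the window as a whole, 74.9% of tiles of its length over the genome held at most as many peaks in the 4 lists together. The gene body held 2 H3K4ox peaks, both of replicate 1, and 1 H2A.Z peak, chr10:8106980-8107757 (score 50.52), which overlapped the first of the H3K4ox peaks (score 55.52). The other H2A.Z peak, 21.7 kb after the start (score 81.48), also met replicate 1 alone.

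H3K4ox was held by both replicates at 3 GATA3 sites, at 31.3, 33.6 and 38.7 kb after the start. Their scores were 65.01, 84.57 and 104.9 in replicate 1 and 78.4, 58.11 and 98.43 in replicate 2. None of the 3 met RUVBL2 or H2A.Z. The best-scoring GATA3 peak, at 37.2 kb (130.6, replicate 1), met RUVBL2 (75.16) but no peak of replicate 2. In the H3K4ox lists, the GATA3 peaks had the lowest median ranks of the 3 genes with more than 1 peak: the median peak scored above 29.8% of the list in replicate 1 and above 24.3% in replicate 2.

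ERBB2, the receptor kinase gene, combined many H3K4ox peaks with no H2A.Z. Its H3K4ox peaks were spread over the window, with 6 in the flank before the gene, 10 in the gene and 5 after it in replicate 1, and 3, 8 and 3 in replicate 2. On chromosome 17, 26.3% of tiles of this length held at least as many peaks in replicate 1 and 54.7% in replicate 2. The peaks nearest to the start were chr17:37842355-37843131 in replicate 1 (score 50.11) and chr17:37842179-37843158 in replicate 2 (score 72.38). Their edges lay 1.26 and 1.24 kb before the first base of the gene, the shortest such distance at any of the 4 genes. The first RUVBL2 peak was 5.70 kb from that base. Starts further inside ERBB2 were not analysed here. H3K4ox was held by both replicates at 10 sites, and those at 9.7, 46.3 and 60.4 kb after the start had the best scores in replicate 1, with 191.3, 184.1 and 199.6, and scored 113.2, 205.6 and 110.7 in replicate 2. The site at 9.7 kb lies in the gene and the other two after its end. In gene order PGAP3 stands before ERBB2, and MIEN1 and GRB7 after it. Their hg19 positions were not used here, so peaks in the flanks may lie in these genes.

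RUVBL2 met 1 of these 10 sites, 25.4 kb inside ERBB2, where RUVBL2 scored 98.19 and H3K4ox 83.41 and 114.5. Of the other 3 RUVBL2 peaks, 1 met H3K4ox of replicate 1 and 2 met none. The nearest H2A.Z peak lay 65.5 kb after the start (score 110.5), outside the window. Over the genome, 50.2% of 35683 tiles of the same length held no H2A.Z, and on chromosome 17 32.7% of 969. Among the 3051 tiles with at least the H3K4ox number of the ERBB2 window (the mean of both replicates), 12.6% held no H2A.Z.

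**Figure D2:**
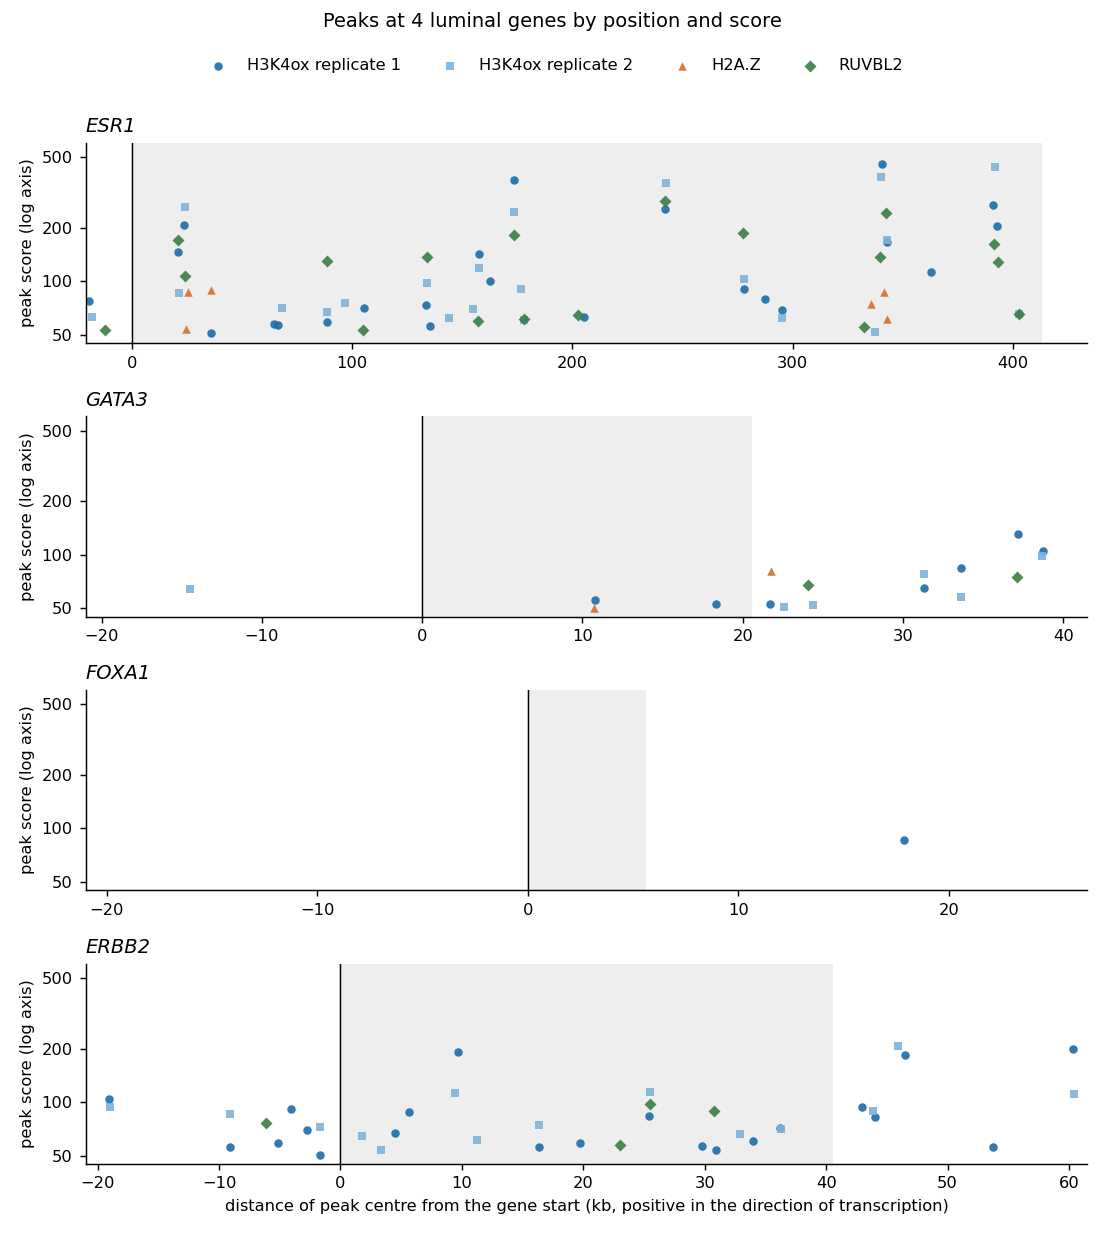
Score of each peak (y axis, log scale) against the distance of its centre from the gene start in kb (x axis) for the 4 genes, with the gene body shaded and 1 symbol per list. No symbol lies within 1 kb of the start line in any panel, and FOXA1 shows 1 peak, at 17.9 kb.

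ESR1, the oestrogen receptor gene, held its peaks in the gene body, which makes up most of its window. On chromosome 6, 50.4% and 51.8% of the 369 tiles as long as its window held at least as many H3K4ox peaks in replicates 1 and 2, 46.9% as many RUVBL2 and 55.8% as many H2A.Z peaks. Of its 68 peaks, 3 lay in the flank before the gene, 1 each of H3K4ox replicates 1 and 2 and of RUVBL2, and none in the flank after it. The nearest edges to the start were 11.7 kb away for RUVBL2, 17.5 and 19.3 kb for H3K4ox and 24.3 kb for H2A.Z. The start used here is the first base of the gene in hg19. ESR1 has several promoters, and the 6 RefSeq entries span 152.4 kb in GRCh38.p14. Their hg19 positions were not used here, so which of them lie before the first base and which inside the gene was not analysed.

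H3K4ox was held by both ESR1 replicates at 11 sites, and 10 of them met RUVBL2. The sites with the best scores in replicate 1 lay at 173.6, 242.3, 341.4 and 391.9 kb after the start. Their best scores were 371.5, 253.5, 457.9 and 267.6 in replicate 1 and 243.8, 355.4, 387.8 and 436.9 in replicate 2. At the same sites RUVBL2 reached 180.7, 281.7, 242.5 and 161.3. The highest RUVBL2 score of all 4 genes, 281.7 at chr6:152252762-152254702, thus lay in the site at 242.3 kb, and 94.7% of all RUVBL2 peaks scored lower. The remaining site, at 295 kb, had scores of 68.95 and 62.33 and no RUVBL2.

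H3K4ox sites held by both replicates met RUVBL2 in 10 of 11 cases at ESR1, 1 of 10 at ERBB2 and 0 of 3 at GATA3. Counted from the RUVBL2 peaks against the same sites, the order was kept, with 12 of 18 at ESR1, 1 of 4 at ERBB2 and 0 of 2 at GATA3. The share over the genome was 64.4%. With H3K4ox of either replicate the order differed, with 2 of 2 at GATA3, 15 of 18 at ESR1 and 2 of 4 at ERBB2, against 81.7% over the genome. Of the 162645 H3K4ox sites held by both replicates over the genome, 38.5% met RUVBL2. On chromosomes 6, 17 and 10 the shares were 55%, 35.4% and 34.9%. The sites of these genes differed in score as well. The median site, by the mean of the best score of each replicate, ranked above 63.5% of all sites at ESR1, 41.8% at ERBB2 and 21.6% at GATA3. Median widths were 1644, 1072.5 and 865 bp, against 1080 bp over the genome, and a wide site meets a peak more easily. Sites in the upper 50% by this score met RUVBL2 in 56.5% of cases over the genome and those in the lower 50% in 20.4%. On chromosome 6 these shares were 72.5% and 34.9%, and on chromosome 17 48.4% and 21.8%. At ESR1 all 7 sites of the upper 50% and 3 of 4 of the lower 50% met RUVBL2. At ERBB2 0 of 3 and 1 of 7 did. All 3 sites of GATA3 lay in the lower 50%, of which 20.4% met RUVBL2 on chromosome 10. The sites of a gene share 1 library for RUVBL2 and are not replicates, so the difference between the genes was not tested.

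**Figure D3:**
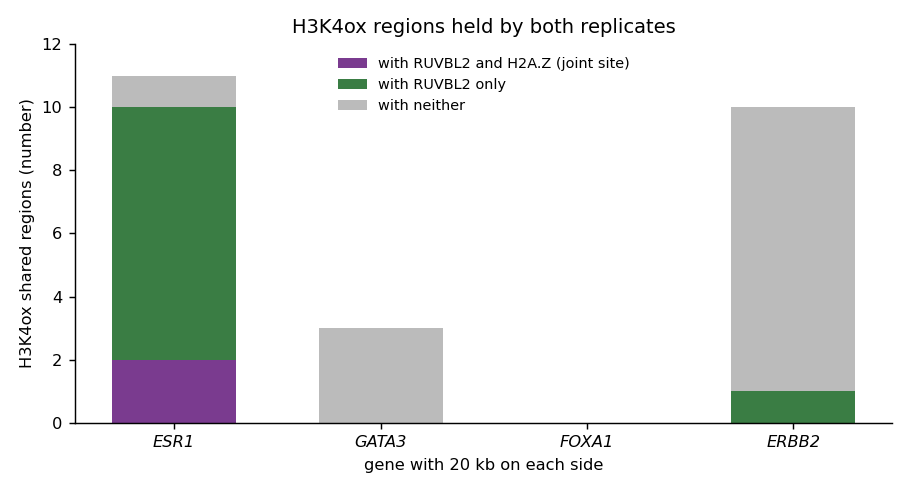
Number of H3K4ox regions held by both replicates (y axis) in the window of each gene (x axis), divided by whether they met RUVBL2 and H2A.Z, RUVBL2 alone or neither. ESR1 has 11 regions, 10 with RUVBL2, while ERBB2 has 10, 1 with RUVBL2, GATA3 3 without it, and FOXA1 none.

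At ESR1 the RUVBL2 peaks fell into a stronger and a weaker set by whether they met these H3K4ox sites. The 12 that did had scores from 59.67 to 281.7 with a median of 149.4 and a median width of 1422 bp. The 6 that did not had scores from 53.02 to 64.99 with a median of 58.2 and a median width of 721 bp. The ranges overlap through 1 peak of the first set, at 157.2 kb (59.67). Over the genome 64.4% of RUVBL2 peaks met such a site, and on chromosome 6 55.1%. H3K4ox peaks showed the same order between replicates: in replicate 1 the 13 peaks met by replicate 2 had a median score of 165.1 and the other 10 one of 66.7, and in replicate 2 the medians were 144.2 for 12 peaks and 65.7 for 9. An overlap of 1 bp is met more easily by wide peaks, and scores were not split in this way over the genome. Whether these splits are particular to ESR1 was thus not analysed.

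Many H3K4ox peaks at these genes were found in 1 replicate and not in the other. At ESR1, 13 of 23 peaks of replicate 1 met replicate 2 and 12 of 21 the other way. At GATA3 these counts were 3 of 7 and 3 of 6, at FOXA1 0 of 1, and at ERBB2 10 of 21 and 10 of 14. Over the genome the shares were 67.8% and 70.2%, and on chromosome 17 73.5% and 75.6%. At ERBB2 the counts parted because replicate 1 held 11 peaks without a partner, with scores from 53.71 to 93.89, and replicate 2 held 4, with scores from 53.74 to 66.42.

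Sites with H3K4ox of both replicates, H2A.Z and RUVBL2 together are called joint sites here, of which the genome held 10100. ESR1 had 2, and GATA3, FOXA1 and ERBB2 had none. In the genome 3.83% of the 10 kb tiles held part of a joint site. Of 6318 tiles of the length of the ESR1 window, 31.2% held at least 2, and on chromosome 6 41.2% of 369 did. The density of joint sites at ESR1 was 1.26 times the mean of all chromosomes but 0.80 times that of chromosome 6. Of tiles as long as the windows of GATA3, FOXA1 and ERBB2, 84.9%, 88% and 81.4% over the genome held none as well. On chromosomes 10, 14 and 17 these shares were 83.2%, 84.2% and 62.7%. Joint sites lay just outside 2 windows. That of GATA3 was at -25.2 kb from the start (H2A.Z score 59.11, RUVBL2 51.73, H3K4ox 166.1 and 174.4). At that of ERBB2 the H3K4ox peaks were centred 65.5 and 65.1 kb after the start (H2A.Z 110.5, RUVBL2 55.69, H3K4ox 86.93 and 82.22). The RUVBL2 peak there did not overlap the H3K4ox peak of replicate 1, so the 4 lists shared no base.

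The first joint site of ESR1, chr6:152034326-152036853, was centred 24 kb after the start. Here H3K4ox scored 208.3 and 259.8, and RUVBL2 106.8. The H2A.Z peak that met both, chr6:152035912-152036628, had a score of 53.56, above 15.7% of its list. A stronger H2A.Z peak, chr6:152036839-152037728 (87.1), reached the edge of the H3K4ox region and did not meet RUVBL2. All 4 lists shared 456 bases, chr6:152035912-152036367. The other, chr6:152350690-152355435, was centred 341.4 kb after the start and was the widest shared H3K4ox region of the 4 genes, at 4746 bp. It held 2 peaks of each list, with H3K4ox scores up to 457.9 and 387.8, RUVBL2 up to 242.5 and H2A.Z up to 87.3. There the 4 lists shared 1511 bases in 3 pieces. Between these sites lay the longest H2A.Z-free stretch of the gene, 298.8 kb from 36.4 to 335.2 kb after the start. It held 7 of the 11 H3K4ox sites and 10 of the 18 RUVBL2 peaks. The stretch makes up most of the 452.8 kb window, so these counts show no preference for it.

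**Figure D4:**
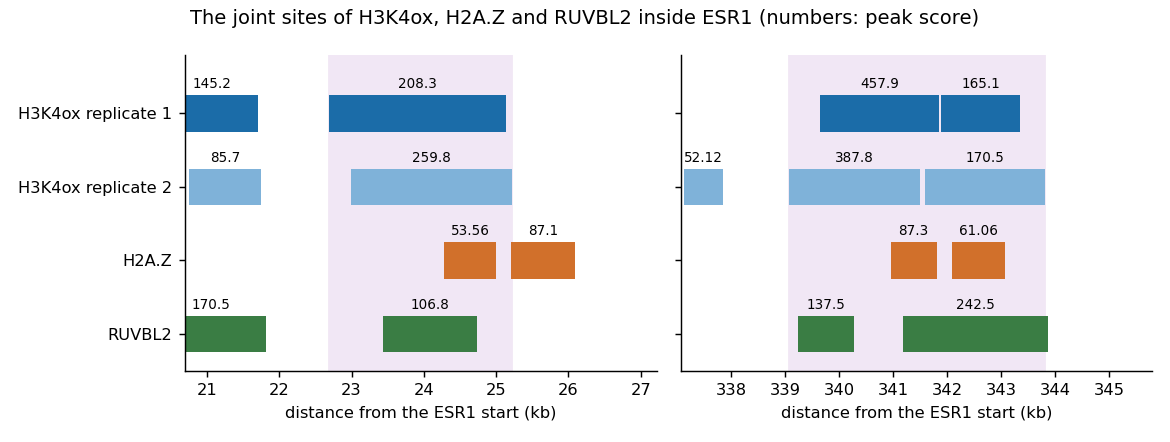
Extent of each peak (bars, with its score above) in the 4 lists (rows) around the joint sites of ESR1, by distance from the gene start in kb (x axis), with the H3K4ox shared region shaded. At each site at least 1 H2A.Z peak lies over both H3K4ox and RUVBL2, and all 4 lists share 456 bases in the left panel and 1511 in the right.

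Scores at the 4 genes stayed far below the highest of each list, which was 3184 and 3204 in the H3K4ox lists and 3100 in the others. The windows hold 125 of 647617 peaks, and so small a set would rarely hold a top score, so this is no trait of the genes. The caller gives each peak its score, of unknown unit and at least 50, so ranks within a list are used. At ESR1, 4 of 23 and 4 of 21 H3K4ox peaks and 2 of 18 RUVBL2 peaks scored above 90% of their list. No peak of the other genes did. Median ranks at ESR1 were 55.5% and 53.0% in the H3K4ox lists, 66.4% in that of H2A.Z and 79.3% in that of RUVBL2, where a whole list has 50%. At ERBB2 they were 35.8% and 48.0% for H3K4ox and 57.6% for RUVBL2. The highest H2A.Z score of the 4 windows, 88.74, was that of a peak 35.9 kb inside ESR1, and 73.1% of the list scored lower.

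**Figure D5:**
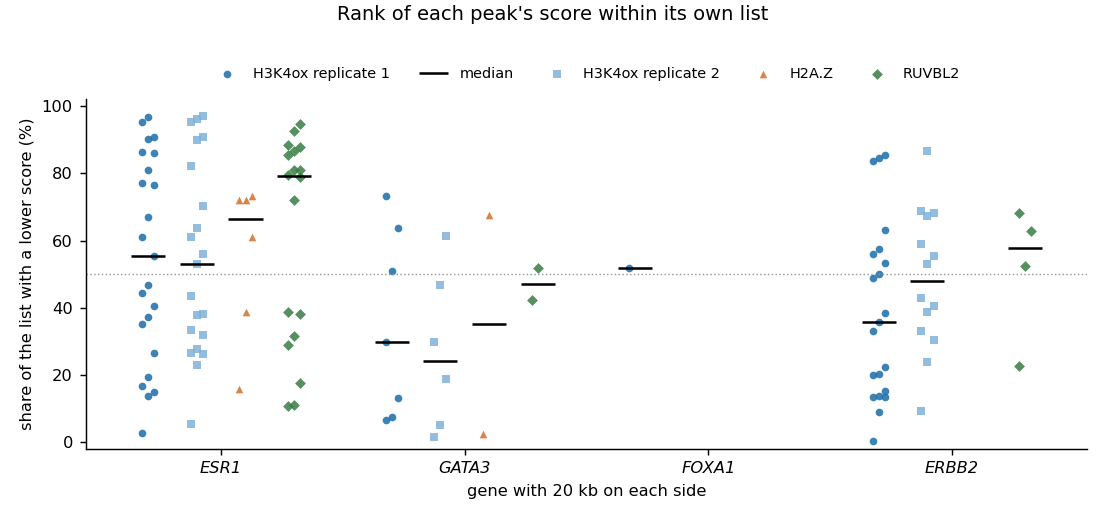
Share of the peaks of the same list that scored lower (y axis, in %) for each peak of the 4 genes (x axis), with a bar for the median of each list and a dotted line at 50%. RUVBL2 peaks of ESR1 have a median of 79.3%, and the H3K4ox peaks of GATA3 medians of 29.8% and 24.3%.

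The distance from the starts was read against the genome in the same way. Of the first bases of the 4 genes, 0 had a peak of any list within 1 kb, while 31.8% of the centres of the 10 kb tiles did. For H3K4ox within 5 kb the count was 1 of 4 in each replicate, ERBB2, against 53% and 51.9% of tile centres. For RUVBL2 and H2A.Z within 5 kb it was 0 of 4, against 29.4% and 12%. Tile centres are not gene starts. Starts of other genes in hg19 and any other starts of these 4 genes were not used here. Whether starts in general lack these peaks in MDA-MB-231 cells thus cannot be told from this comparison.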

How the data were processed

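Peak lists of 4 ChIP-seq libraries from MDA-MB-231 cells were used: 2 of H3K4ox, 1 of H2A.Z and 1 of RUVBL2, grouped by the labels. Each library had its own list. The authors' deposited score of each peak came from a caller named MACS in the peak names, per the file headers, with no version, settings or unit named. The word multilocus stands in the header lines without explanation. Per the submitters' processing notes, the build named is hg19, and Bowtie and TopHat are among the tools named. No label says whether the H3K4ox libraries are separate cultures. Their spread may thus be technical. Depth was unknown.

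Python 3.11.15, numpy 2.4.6 and pandas 2.3.3 computed all values, and matplotlib 3.10.9 drew the plots. Peaks overlapped at 1 bp or more, and BED starts were counted from 1. H3K4ox regions held by both replicates were merged peaks with at least 1 peak of each. Distances run from the first base of a gene. The overlap code was tested on simulated data. The genes, the windows and the comparisons were chosen with earlier results of these data known. The 4 genes were named by the rule. Peaks named are, per gene and list, the best-scoring and nearest, the joint sites, and others chosen after their values were seen. The division of sites by score, the positions near a peak and the peaks outside the windows were also added after seeing the data. Alternatives were other flanks, peak centres, the upper 50% by score, 50% coverage and each H3K4ox replicate alone. The planned lists of other luminal and basal genes needed hg19 gene positions, which were not used here.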

Additional observations from a re-analysis of the deposited data

How the results depend on the processing

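Of 80 values under other settings, 62 stayed within 1.5 times the reported one, a change of exactly 1.5 times included, and 18 did not. Many of the 62 were counts of 0 that stayed 0, often under settings that can only remove peaks. The share that stayed is thus no measure of how firm the results are. Using the upper 50% of each list by score gave 0.25 H3K4ox and 0.24 RUVBL2 peaks per 10 kb at ESR1, 0.33 H3K4ox, 0.17 H2A.Z and 0.17 RUVBL2 at GATA3, and 0.87 H3K4ox at ERBB2, since that setting removes the weaker peaks. Without flanks GATA3 had 0.49 H3K4ox and 0 RUVBL2, and FOXA1 0 H3K4ox peaks per 10 kb. With 50 kb flanks RUVBL2 rose to 0.66 at GATA3. FOXA1 then had 0.38 H3K4ox, 0.095 H2A.Z and 0.28 RUVBL2, and ERBB2 0.071 H2A.Z. The same flanks gave 1 joint site at GATA3 and 1 at ERBB2, so their absence holds for 20 kb flanks. Leaving out 1 H3K4ox replicate gave 0 to 0.22 at FOXA1, where 1 peak of replicate 1 is the whole signal. The same step gave 0.46 to 0.51 at ESR1, 0.99 to 1.16 at GATA3 and 1.74 to 2.61 at ERBB2. It also gave 3 joint sites at ESR1 with either replicate alone. No new place was added, since the site at 341.4 kb holds 2 peaks of each replicate, which then count singly. Peak centres and 50% coverage changed no value by over 1.5 times. No paired analysis was possible because H2A.Z and RUVBL2 have 1 library each and no result comes from a test. With 1 to 23 peaks per list and gene, single peaks near the lowest score of 50 decide the smaller counts.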
